A study of Mus musculus with 66 samples.

Results

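The regions described here are those that lie near the ends of the 19 mouse autosomes in 6 deposited tables of changed chromatin regions. A region was placed at the centromere end when it ended at or before base 6000000, which is within 3 Mb of the first assembled base (3000001), and at the telomere end when it started within 3 Mb of the largest region end listed for that chromosome in the CATCH-IT table. By this rule 2730 of 56033 autosomal regions were members, 1262 at the centromere end and 1468 at the telomere end. The 5 tables of the histone variant H3.3 held 239 of these members among 4637 autosomal regions (106 at the centromere end and 133 at the telomere end), and the table of CATCH-IT held 2491 among 51396 (1156 and 1335).

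H3.3 is a form of histone H3 that cells can deposit outside DNA replication, so it is the main form exchanged into chromatin of neurons that no longer divide. The chaperone pair ATRX and DAXX is known for depositing H3.3 at pericentric heterochromatin and telomeres, while HIRA deposits it at genes. Mouse autosomes have their centromere at one tip: most of its satellite DNA, and most of the telomere repeats of both tips, are missing from the assembly, so the members lie in the assembled sequence beside those structures.

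All material came from C57bl/6 mice. H3.3 was precipitated from primary cortical neurons taken at E16.5 and kept for 8 days in vitro, unstimulated (control) or depolarised with isotonic KCl for 30 min, 2 hr or 5 hr (3 libraries a group in each table), and from sorted hippocampal nuclei of mice of about 7 weeks, either NeuN-positive (neuronal, 2 libraries a group) or NeuN-negative (3 a group), after normal housing or 4 weeks of enrichment. CATCH-IT, which labels newly made histones metabolically and so reports histone turnover, was done on the cortical neurons with or without 5 hr of KCl (3 libraries a group). The labels call the groups biological triplicates in vitro and duplicates in vivo, and sorting by NeuN leaves the NeuN-negative nuclei a mixture. The marker genes fixed for neurons, astrocytes, oligodendrocytes, microglia and endothelium had no region at either end, so the members carry no check of the labelled cell types.

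Each table lists only regions that its authors called changed, with a normalised read count for every library. A region is called gained here when the mean of the treated libraries (KCl or enriched) was above that of the control libraries, and lost when it was below. The lowest and highest values of the groups did not overlap at any of the 239 H3.3 members, as at all 4637 autosomal regions of those tables, so the separation of the groups is a property of the lists. The titles of the libraries name sequencing lanes: in 5 of the 6 tables no lane held both treated and control libraries, so lane and treatment cannot be told apart there, and only the 5 hr H3.3 libraries shared 3 lanes between the groups.

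The sequences that follow are shown because they carry the contrasts reported further on: a gained and a lost region of NeuN-positive nuclei with unlike base composition, a pair in the gene Dscam with opposite directions, a region with a simple repeat in Kcnq1, and one close to the first assembled base of chromosome 17. They are the plus strand of build mm9, with every CpG in capitals.
Ccdc40, gained in NeuN-positive nuclei, chr11:119101301-119101500: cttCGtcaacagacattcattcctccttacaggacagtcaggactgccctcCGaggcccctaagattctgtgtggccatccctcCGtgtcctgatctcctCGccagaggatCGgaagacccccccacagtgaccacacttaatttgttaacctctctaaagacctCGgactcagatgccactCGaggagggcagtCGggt
Fgf14, lost in NeuN-positive nuclei, chr14:124889341-124889540: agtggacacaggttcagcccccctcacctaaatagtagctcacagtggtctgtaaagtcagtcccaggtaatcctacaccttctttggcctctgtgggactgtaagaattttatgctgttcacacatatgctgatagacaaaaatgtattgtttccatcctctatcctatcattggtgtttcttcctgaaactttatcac
Dscam, lost after 2 hr of KCl, chr16:96982381-96982580: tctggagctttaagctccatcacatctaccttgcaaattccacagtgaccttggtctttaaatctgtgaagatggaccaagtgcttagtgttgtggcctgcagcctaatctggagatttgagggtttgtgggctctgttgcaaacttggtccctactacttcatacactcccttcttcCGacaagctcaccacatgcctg
Dscam, gained in NeuN-negative nuclei, chr16:96965061-96965320: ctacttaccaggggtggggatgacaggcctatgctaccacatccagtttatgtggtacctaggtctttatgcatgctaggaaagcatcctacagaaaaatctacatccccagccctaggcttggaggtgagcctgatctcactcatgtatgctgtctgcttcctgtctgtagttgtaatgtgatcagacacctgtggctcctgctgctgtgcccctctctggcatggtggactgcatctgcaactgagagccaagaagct
Kcnq1, gained in NeuN-negative nuclei, chr7:150557001-150557280: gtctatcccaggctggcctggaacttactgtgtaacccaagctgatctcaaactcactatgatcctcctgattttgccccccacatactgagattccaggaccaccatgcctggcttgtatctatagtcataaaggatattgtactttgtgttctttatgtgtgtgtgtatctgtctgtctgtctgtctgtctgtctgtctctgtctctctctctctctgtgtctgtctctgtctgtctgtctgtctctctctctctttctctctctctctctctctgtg
Proximal chromosome 17, gained in NeuN-positive nuclei, chr17:3030931-3031230: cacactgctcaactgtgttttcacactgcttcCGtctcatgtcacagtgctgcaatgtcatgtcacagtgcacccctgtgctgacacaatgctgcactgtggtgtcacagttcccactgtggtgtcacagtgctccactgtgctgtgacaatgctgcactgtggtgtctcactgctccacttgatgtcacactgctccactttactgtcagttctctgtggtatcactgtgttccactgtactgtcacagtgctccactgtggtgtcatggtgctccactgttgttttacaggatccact

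The Ccdc40 region held 8 CpGs at 55.5% GC, whereas the Fgf14 region held 0 at 42.5% GC. The CpG contrast is that of this pair. Over all NeuN-positive telomere-end members the median CpG per 100 bases was 0.500 in both gained and lost regions. At the centromere end it was 1.39 in gained and 0.833 in lost regions. The last part of the Kcnq1 region is a run of tctg and tc repeats. The chromosome 17 region starts 30.9 kb from the first assembled base, and the 300 bases shown are its middle.

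The share of gained regions at the chromosome ends was not separated from that of the rest of the chromosomes by its interval in any table, though the counts were small. After 30 min of KCl, 6 of 17 centromere-end regions (35.3%, 95% exact binomial interval 14.2 to 61.7) and 3 of 11 telomere-end regions (27.3%, 6.02 to 61.0) were gained, where 19.6% of all autosomal regions listed were gained. After 2 hr the counts were 3 of 16 (18.8%, 4.05 to 45.6) and 3 of 18 (16.7%, 3.58 to 41.4), beside 14.4% of all autosomal regions. After 5 hr they were 5 of 14 (35.7%, 12.8 to 64.9) and 7 of 13 (53.8%, 25.1 to 80.8), beside 44.4%. Depolarised neurons had mostly lost regions at both ends at 30 min and 2 hr, as along the whole chromosomes.

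Enriched housing was accompanied by mostly gained regions. NeuN-positive nuclei had 26 of 37 gained at the centromere end (70.3%, 53.0 to 84.1) and 33 of 54 at the telomere end (61.1%, 46.9 to 74.1), with 71.8% of all autosomal regions gained. In NeuN-negative nuclei the counts were 17 of 22 (77.3%, 54.6 to 92.2) and 23 of 37 (62.2%, 44.8 to 77.5), beside 70.8%. CATCH-IT had 667 of 1156 regions gained at the centromere end (57.7%, 54.8 to 60.6) and 771 of 1335 at the telomere end (57.8%, 55.1 to 60.4), beside 57.2%. The share gained over the rest of the chromosomes lay inside the interval of the end in all 12 comparisons, and the telomere-end share lay inside the centromere-end interval in all 6 tables. With 11 to 54 members an end, the intervals of the H3.3 tables leave room for wide differences, and they treat regions as independent, which neighbouring regions are not.

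**Figure D1:**
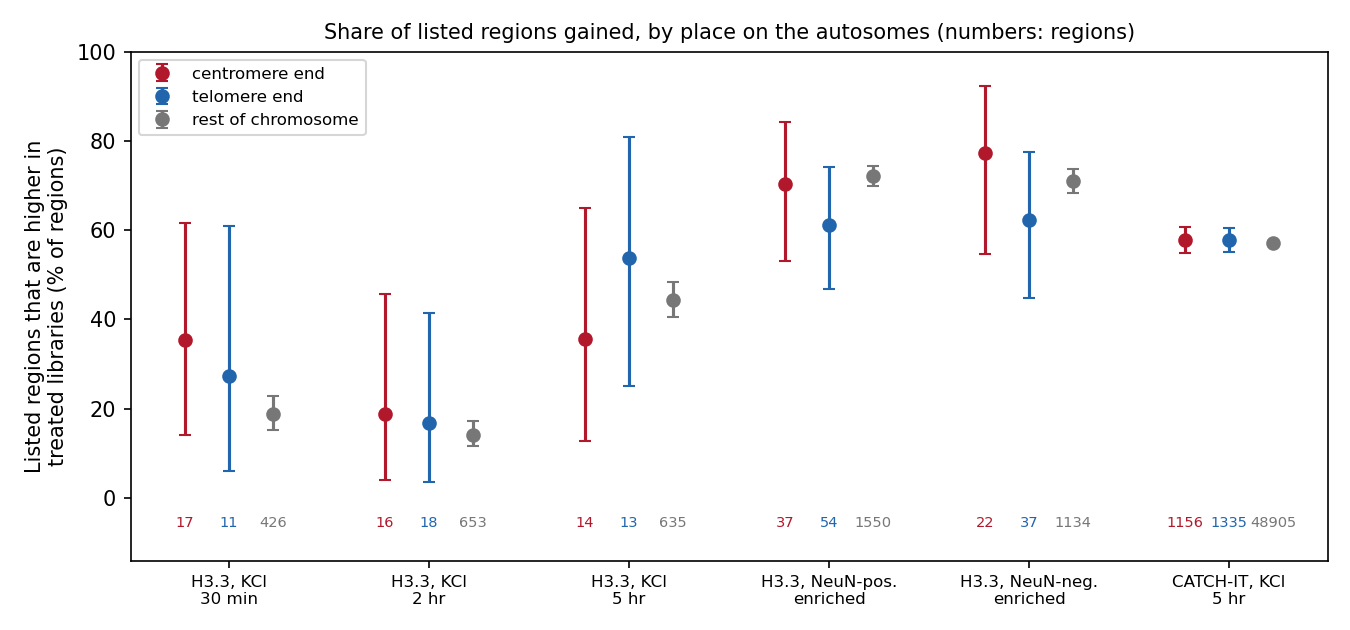
Share of listed regions that were gained (points, percent) with 95% exact binomial intervals (bars), for the centromere end, the telomere end and the rest of the autosomes in each of the 6 tables; the number of regions stands under each point. All 12 end intervals hold the value of the rest of the chromosomes, and the CATCH-IT points lie at 57.7%, 57.8% and 57.2%.

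The authors' adjusted p separated the tables more than the places. It was at most 0.05 at all 28 members of the 30 min table (98.5% of all autosomal regions in the authors' deposited table), all 34 of the 2 hr table (99.6%), all 91 of the NeuN-positive table (97.8%), all 59 of the NeuN-negative table (99.8%) and all 2491 of the CATCH-IT table (100%). Of the 27 members at 5 hr, 1 met it (3.02% of all autosomal regions there). That member was a lost intergenic region on distal chromosome 6 (chr6:148397541-148397780). Its KCl libraries had 5.90, 4.39 and 3.97 normalised reads and its control libraries 18.89, 14.35 and 21.34, so that the lowest control value was more than double the highest KCl value.

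The number of regions per Mb was close to that of the rest of the chromosomes at most ends, and higher at the telomere end in NeuN-positive nuclei and in CATCH-IT. NeuN-positive nuclei had 0.947 telomere-end regions per Mb (95% exact Poisson interval 0.712 to 1.24), 0.649 at the centromere end (0.457 to 0.895) and 0.674 elsewhere. CATCH-IT had 23.4 at the telomere end (22.2 to 24.7), 20.3 at the centromere end (19.1 to 21.5) and 21.3 elsewhere. The higher density was not confined to the 3 Mb window. With a window of 6 Mb the telomere-end values were 0.921 in NeuN-positive nuclei and 23.5 in CATCH-IT. In CATCH-IT the outermost 0.5 Mb had 20.7 per Mb, and the step from 3 to 3.5 Mb had 28.4. The value of the rest lay inside the interval at the other 10 of the 12 ends, among them the NeuN-negative telomere end (0.649 per Mb, 0.457 to 0.895, against 0.493 elsewhere) and the 30 min centromere end (0.298 per Mb, 0.174 to 0.478, against 0.185 elsewhere; per Mb of single-copy sequence the latter lay above the rest, as given next).

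The ends differ in how much of their sequence a short read can be placed in. Of 32-base words taken every 200 bases, 75.1% at the centromere end and 87.5% at the telomere end occurred once in the build, against 84.6% of words taken every 5 kb elsewhere. Per Mb of such single-copy sequence, CATCH-IT had 27.0 regions at the centromere end, 26.8 at the telomere end and 25.1 elsewhere. The intervals of the ends overlapped (25.5 to 28.6 and 25.4 to 28.2) and both lay above the rest. These counts hold all regions, also the multi-copy ones described below (8.82% at the centromere end, 3.67% at the telomere end, 3.86% elsewhere). Whether the ends stay above the rest on this scale without them was not computed. Per Mb of assembled sequence, CATCH-IT without them had 18.5 at the centromere end, 22.6 at the telomere end and 20.4 elsewhere. For NeuN-positive nuclei the values per Mb of single-copy sequence were 0.865, 1.08 (0.813 to 1.41) and 0.796. On this scale the 30 min centromere end, at 0.397 (0.231 to 0.636), also lay above the rest at 0.219, a change of call from the count per Mb of assembled sequence that rests on 17 regions. At the other 8 ends of the H3.3 tables the value of the rest stayed inside the interval. The telomere end also holds more starts of protein-coding genes, 12.9 per Mb against 11.3 at the centromere end and 8.71 elsewhere, and the part of gene density in the region counts was not tested.

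**Figure D2:**
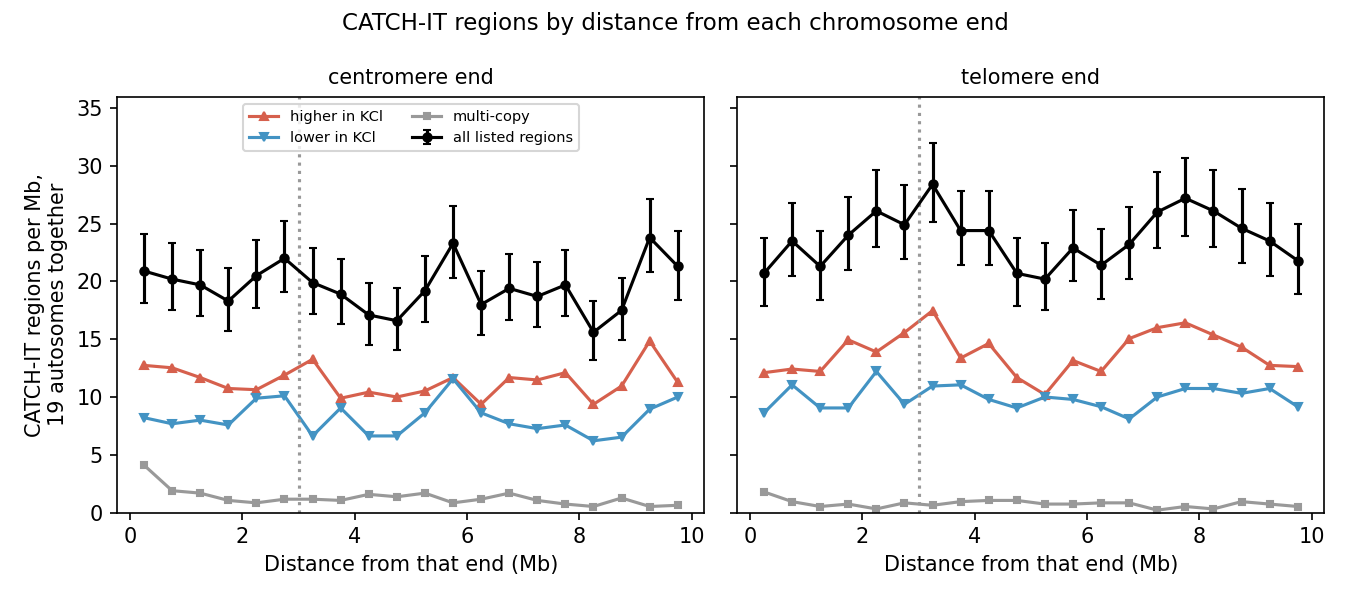
CATCH-IT regions per Mb in steps of 0.5 Mb from the first assembled base (left) and from the last listed base (right), over 19 autosomes together: all regions with 95% exact Poisson intervals (black), those gained, those lost, and those in multi-copy sequence (grey). The dotted line marks the 3 Mb window; multi-copy regions number 39 in the first 0.5 Mb at the centromere end and 17 at the telomere end.

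Single autosomes departed from this average at the centromere end. Over the 19 autosomes the CATCH-IT density there ran from 2 regions per Mb on chromosome 14 to 42.7 on chromosome 11, while at the telomere end it ran from 15 to 28.7 and over the rest of each chromosome from 19 to 24. Chromosome 14 had 6 regions in its first 3 Mb, all 6 in multi-copy sequence, and 3.68% of the 32-base words of that window occurred once in the build. The low count of that end therefore stands beside a window where few reads have a single place. The centromere end was denser than the rest of its own chromosome on 6 of 19 autosomes and the telomere end on 13 of 19. In the 5 H3.3 tables together, chromosome 2 had the most centromere-end members (14), followed by chromosome 19 (12), and chromosome 14 had 0.

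**Figure D3:**
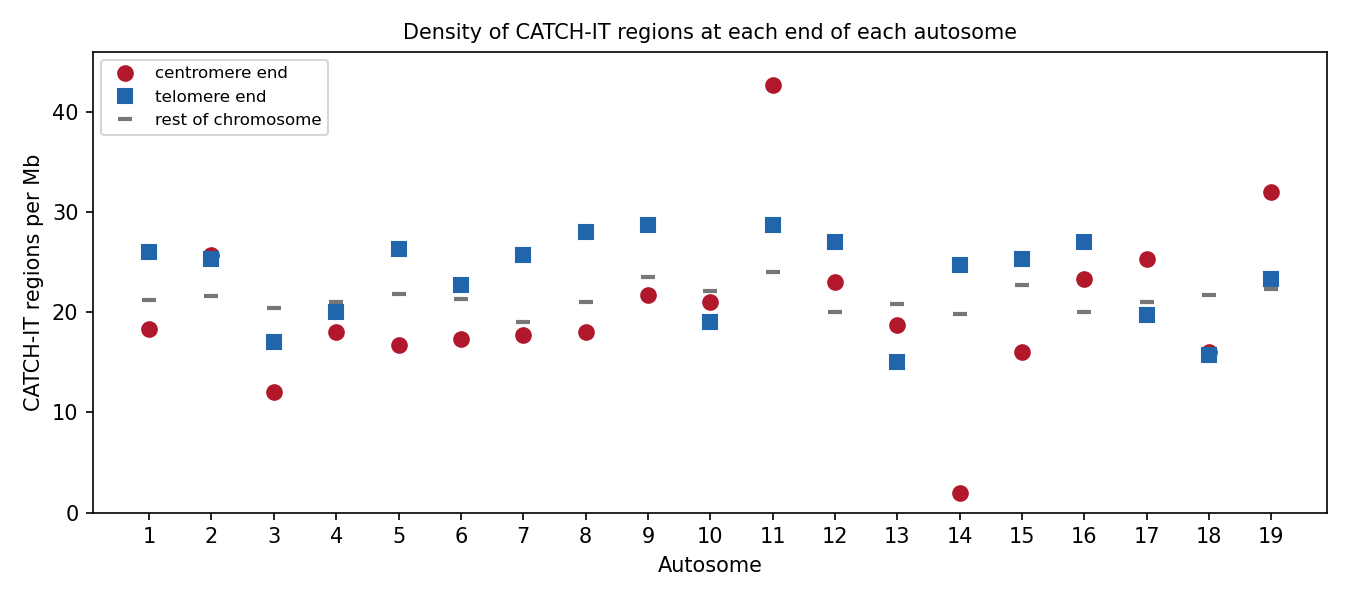
CATCH-IT regions per Mb at the centromere end, the telomere end and over the rest of each of the 19 autosomes. Chromosomes 11 and 19 stand highest at the centromere end (42.7 and 32 per Mb), chromosome 14 lowest (2 per Mb).

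On chromosome 11 the largest group of members lay at 1 gene. Sfi1, which encodes a centrosome protein, was the authors' nearest gene for 39 of the 128 centromere-end regions there, 18 gained and 21 lost. A stretch of 50 kb, chr11:3040341-3090520, held 31 of them (15 gained and 16 lost), and 0 of the 31 counted as multi-copy. That measure sees only copies present in the build, so whether the genome holds more copies of the stretch was not tested. The lost region with the largest difference, chr11:3094401-3094900, had 0 reads in the KCl libraries and 5.36, 18.02 and 35.48 normalised reads in the control libraries; the annotation puts its midpoint in an intron of the neighbouring gene Drg1. A second lost region, chr11:3040341-3040920, lies in an intron of Sfi1 and had 0 in all KCl libraries against 5.05, 13.86 and 28.38. Both directions were thus present within the same stretch.

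Multi-copy sequence was more common among centromere-end regions. A region was called multi-copy when fewer than 50% of its 32-base words, taken every 12 bases, occurred once in the build. In CATCH-IT 102 of 1156 centromere-end regions (8.82%) met this, 49 of 1335 telomere-end regions (3.67%) and 3.86% elsewhere. They were 11.1% of the gained and 5.73% of the lost regions at the centromere end, against 4.74% and 2.67% elsewhere. None of the 239 H3.3 members was multi-copy. The share of CATCH-IT regions gained was 61.4% (56.4 to 66.2) in the first Mb of the centromere end, 59.0% in the next Mb and 53.0% (48.0 to 57.9) in the third; without multi-copy regions the 3 values were 57.5%, 59.1% and 52.7%. At the telomere end the outermost Mb had 55.5% gained (50.6 to 60.3), and the following ones 60% and 57.7%. Autosomal regions that the authors themselves labelled pericentromeric numbered 53 in CATCH-IT with 40 gained, where 57.2% of all its autosomal regions were gained. Of these 53, 19 (16 gained) lay in 1 multi-copy stretch at the start of chromosome 9, described next. NeuN-positive nuclei had 3 such regions, all gained, where 71.8% of all autosomal regions were gained. After 30 min of KCl there was 1, also gained, where 19.6% of all autosomal regions were gained.

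The first 50 kb of assembled chromosome 9 held a group of CATCH-IT members in repeated sequence. It had 19 regions between bases 3002721 and 3037420, 16 gained and 3 lost, all of them multi-copy. No H3.3 table listed a region there. The assembled sequence of this stretch matched itself best at a shift of 234 bases (59.9% identity), and 8 of the 19 regions, taken with 500 bases on each side, matched themselves at that shift in at least 70% of positions. Mouse major (gamma) satellite, the main repeat of mouse pericentric heterochromatin, is known to be an array of units of this length. The 2 regions with the highest KCl mean are shown by the stretch that is identical in both, on the plus strand of mm9, with the shared bases in capitals.
chr9:3030251-3030333: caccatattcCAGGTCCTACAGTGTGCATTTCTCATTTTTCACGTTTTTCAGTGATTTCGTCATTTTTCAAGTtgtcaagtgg
chr9:3019371-3019453: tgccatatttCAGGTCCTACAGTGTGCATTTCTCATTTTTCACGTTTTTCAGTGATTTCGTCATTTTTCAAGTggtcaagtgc

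The shared stretch of 63 bases is longer than the 32-base words used here, so a short read from it has more than 1 place. The first region, chr9:3029941-3030420, had 243.12, 113.43 and 328.86 normalised reads in the KCl libraries and 42.60, 83.15 and 63.86 in the controls, means of 228.5 ± 108.5 and 63.2 ± 20.3 (SD, n = 3 each). The second, chr9:3019321-3019980, had 124.23, 63.37 and 176.66 against 14.52, 33.26 and 55.58. The groups did not overlap at 12 of the 19 regions of the stretch, against 99.3% of all autosomal CATCH-IT regions. In the first and the second region all KCl values exceeded all control values. The 3 lost regions of the stretch went the other way: chr9:3024841-3025040 had 0, 2.13 and 0 in KCl against 6.00, 15.24 and 22.47. It ends 20 bases before a gained region, chr9:3025061-3025320, which had 41.41, 21.30 and 48.92 against 3.47, 15.24 and 14.19.

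The CATCH-IT libraries differed in their summed values, so the stretch was also compared as a share of each library. Over all listed autosomal regions the values summed to 218469.5, 136273.3 and 353626.0 in the KCl libraries and to 40564.2, 173041.4 and 263588.8 in the controls. Taken as a share of its library's own sum, the stretch held 0.350%, 0.294% and 0.330% in the KCl libraries and 0.331%, 0.170% and 0.126% in the controls. On this scale the groups overlapped, since 1 control library lay between KCl libraries. An exact permutation test over the 6 libraries cannot go below a two-sided p of 0.1 and was not run. The corresponding shares of both whole ends were close in all CATCH-IT libraries, 2.34% to 2.70% for the centromere end and 2.54% to 2.75% for the telomere end.

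CATCH-IT members rested on few reads, in counts that pile up at 6 and 12. The value of 1 read could be recovered for each library (all low values were whole multiples of it within 0.1 of a step): 1.34, 0.533 and 2.72 normalised units in the KCl libraries and 0.315, 1.39 and 1.18 in the controls. Gained members had a median of 17 reads over the 3 KCl libraries at either end, and lost members a median of 21 over the 3 control libraries. At the centromere end 24.3% of gained members had exactly 6 reads in the first KCl library, against 1.95% with 5 and 6.75% with 7. Among lost members there, 68.5% had exactly 12 reads in the third control library, against 0.204% with 11 and 1.64% with 13. At least 1 library of the higher group was at 6 or 12 reads in 55.3% of gained and 93.7% of lost centromere-end members, in 58.9% and 93.6% at the telomere end, and in 58.3% and 93.8% elsewhere. The table's name carries the number 6 beside an abbreviation for duplicates, and whether the piles are copies of 1 fragment was not tested. Without regions that have such a pile, an alternative added after seeing the data, 90.6% of the remaining 329 centromere-end members and 89.8% of the remaining 353 telomere-end members were gained, against 90.0% elsewhere. This setting looks at the higher group alone. Such piles were more common in lost than in gained regions, as given above, so it takes out most of the lost ones. The higher share it leaves says nothing of the direction of change.

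**Figure D4:**
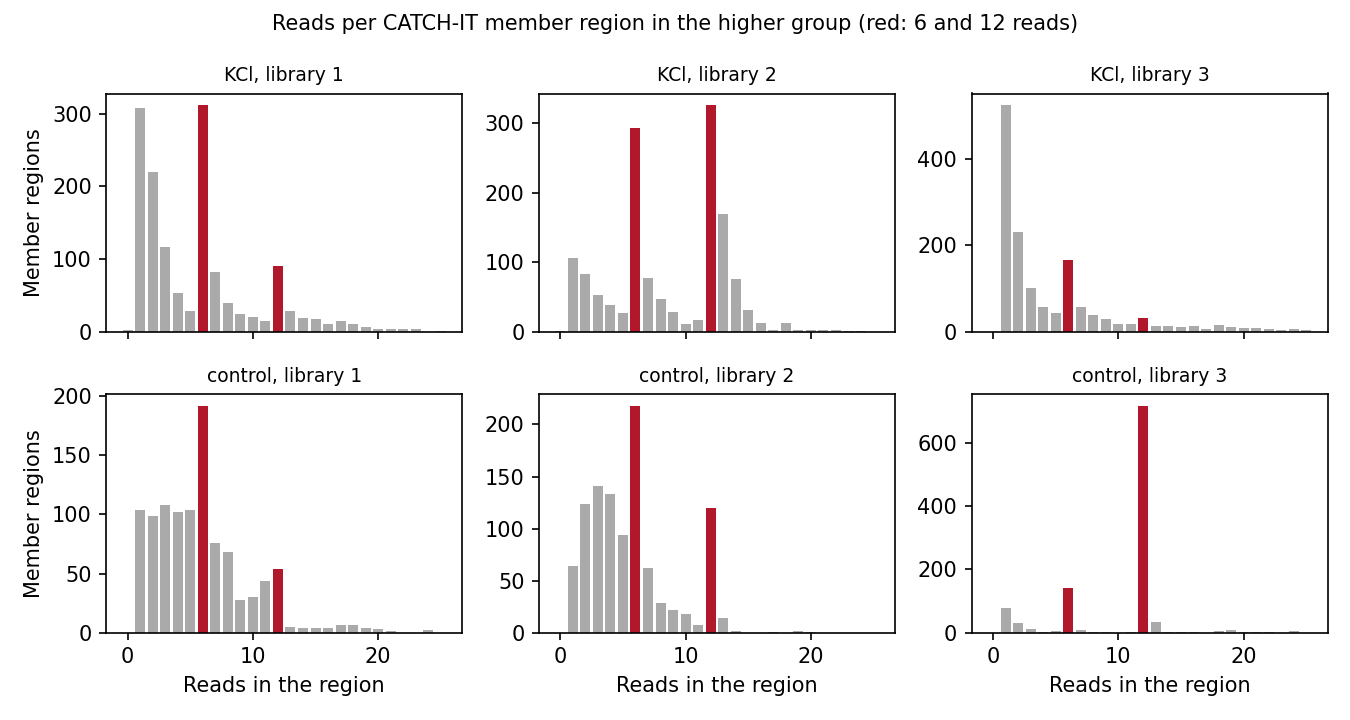
Number of CATCH-IT member regions (both ends) by recovered reads in each library of the group with the higher mean: the KCl libraries for gained regions (top) and the control libraries for lost regions (bottom), with 6 and 12 reads in red. In control library 3 most lost regions stand at exactly 12 reads.

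The group with the lower mean was mostly empty. All its libraries were at 0 in 618 of 667 gained centromere-end members (92.7%) and in 742 of 771 at the telomere end (96.2%), against 96.6% elsewhere; for lost members the values were 97.3% and 99.6%, against 99.4%. Since 0 reads allow up to 3, a value of 0 allows up to 4.01, 1.60 and 8.16 normalised units in the KCl libraries and up to 0.946, 4.16 and 3.55 in the controls, for counting error only. Both groups were above 0 at 62 centromere-end members, of which 49 were gained, 33 were multi-copy and 21 lay on chromosome 9, and at 31 telomere-end members, of which 29 were gained.

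Named by the smallest adjusted p of the authors' deposited table and then by the difference of means, the leading gained CATCH-IT members at the centromere end included regions in introns of Cdk6, a cell-cycle kinase gene, and Ccdc132. The Cdk6 region, chr5:3352361-3352740, had 8.02, 18.11 and 32.61 in the KCl libraries and 0 in all controls. At the telomere end the leading gained members with a gene were in introns of Nktr and of Rtel1, which encodes a DNA helicase known for its role at telomeres. The Rtel1 region, chr2:181088421-181088860, lies 654.3 kb from the last listed base of chromosome 2 and had 9.35, 9.59 and 35.33 against 0 in all controls. The named telomere-end region with the highest KCl mean owed it to 1 library: an intergenic region, chr17:92519461-92519840, had 76.14 in the first KCl library and 2.66 and 5.44 in the others. The lost telomere-end region named first was also uneven, with 38.80 in the second control library and 0.95 and 1.18 in the others at chr19:58947601-58947820.

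Few genes had many members. Camk1d, a calcium/calmodulin-dependent kinase gene on proximal chromosome 2, had 12 CATCH-IT regions, all 12 gained, and its neighbour Frmd4a had 14, 11 gained and 3 lost. Dnmt3a, a DNA methyltransferase gene, had 3 gained and 5 lost, and Klhl29 3 gained and 7 lost. At the telomere end the polarity gene Pard3 led with 17 (13 gained), followed by Fgf14 with 16 (9 gained) and the mTOR-complex gene Rptor with 14 (9 gained). These genes were named with their counts in view, and 57.2% of all autosomal CATCH-IT regions were gained. Of the genes with 2 or more CATCH-IT members, which alone can hold both directions, 74 of 106 at the centromere end and 85 of 135 at the telomere end held both. The same share was not counted over the rest of the autosomes, so it cannot be called a trait of the ends.

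In the H3.3 tables the members were single sites with a median width of 200 bp, most of them in introns or between genes. By the annotation 46 of 106 centromere-end members lay in introns, 51 between genes and 6 in coding exons; at the telomere end 65 of 133 lay in introns, 58 between genes and 4 in coding exons. By the authors' own classes 16.0% of centromere-end and 19.5% of telomere-end members were promoter regions, against 13.6% elsewhere. The highest promoter share was 29.7% at the telomere end of NeuN-negative nuclei, against 10.8% elsewhere, and it rests on 37 regions. The reads behind a value were few: in the higher group the median library had 12 reads at 30 min and at 2 hr, 14 at 5 hr, 22 in NeuN-positive and 7 in NeuN-negative nuclei.

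No H3.3 member overlapped a member of another H3.3 table by 1 bp or more, and over the rest of the autosomes only 4 of 4398 H3.3 regions did (0.0910%). Against CATCH-IT, 2 of 59 NeuN-negative members overlapped (3.39%, or 0.0803% of the CATCH-IT members), both gained in both tables, and 0 of the members of the other 4 tables did; over the rest of the autosomes 10 of 1134 NeuN-negative regions (0.882%) and 58 of all 4398 H3.3 regions (1.32%) overlapped a CATCH-IT region. Of the 2 shared positions, one lies on chromosome 7 (chr7:3471941-3472140) and one by 2610044O15Rik on chromosome 17. Of the 123 genes with an H3.3 member at an end, 15 (12.2%) had members in 2 or more of the 5 tables, 7 at the centromere end and 8 at the telomere end, beside 283 of 2159 genes (13.1%) over the rest of the autosomes. Those 15 genes are a choice made after their values were seen.

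Among these genes, Fam110b, whose product binds centrosomes and microtubules, had lost regions in 3 tables. At 30 min its intronic region chr4:5645381-5645600 had 3.46, 4.21 and 1.03 in KCl and 12.68, 11.66 and 10.74 in control libraries. At 2 hr another intronic region, chr4:5831901-5832100, had 0.92, 2.27 and 2.72 against 9.16, 12.50 and 11.05, a log2 change of -2.47 with an adjusted p of 0.0128 in the authors' deposited table. In NeuN-negative nuclei the region chr4:5682801-5683000 had 1.16, 2.64 and 0 after enrichment against 5.69, 8.11 and 5.43. Control values stood above treated values in each, at 3 separate positions, as they did at every lost region of the H3.3 tables. In CATCH-IT the gene's 4 regions went the other way, all 4 gained.

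Cdk14, a cyclin-dependent kinase gene of proximal chromosome 5, had 1 lost region at 30 min and 2 at 2 hr. The one in an untranslated region of the gene, chr5:4804001-4804260, had 3.68, 4.55 and 4.09 after 2 hr of KCl and 14.26, 14.16 and 14.73 in controls, the smallest spread among these genes at that time, with means of 4.10 ± 0.435 and 14.4 ± 0.304 (SD, n = 3 each). Plxna2, which encodes a semaphorin receptor, lost a region at 30 min (6.92, 7.36 and 2.06 against 20.29, 16.65 and 13.67) and another at 2 hr (2.76, 3.79 and 5.45 against 11.20, 19.99 and 13.50). The transporter gene Slc35f3 went the other way, with a gained region at 2 hr (11.94, 11.37 and 10.89 against 2.04, 2.50 and 3.68) and one at 5 hr (12.79, 14.05 and 17.86 against 2.36, 5.13 and 6.79). The 5 hr region had an adjusted p of 0.110 in the authors' deposited table, and so did not reach 0.05.

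Other genes held regions of opposite direction in different tables. Dscam, an adhesion molecule gene for neuronal wiring on distal chromosome 16, had a lost region at 2 hr with 0.92, 1.52 and 5.45 in KCl against 9.16, 11.66 and 14.73, and a gained region in NeuN-negative nuclei with 12.80, 5.28 and 6.51 after enrichment against 0.95, 0 and 0. Both lie in introns and are the pair shown above in sequence. In CATCH-IT the gene had 3 gained and 9 lost regions. Klhl29 had a lost region at 30 min (2.59, 5.26 and 2.06 against 15.21, 12.49 and 14.65) and a gained one at 5 hr (22.62, 12.29 and 18.85 against 2.36, 8.20 and 4.85), the latter with an adjusted p of 0.110 in the authors' deposited table. Shank2, a postsynaptic scaffold gene, was gained at 5 hr (16.72, 16.68 and 15.87 against 2.36, 6.15 and 7.76) and lost in NeuN-negative nuclei (0, 0 and 2.17 against 7.58, 6.08 and 9.95). Since the positions, cells and treatments differ, these values stand side by side only.

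Fgf14, which encodes a regulator of neuronal sodium channels, held the member of NeuN-positive nuclei with the largest fall among those named. Its intronic region chr14:124889341-124889540 had 1.57 and 2.57 after enrichment and 16.56 and 16.44 after normal housing, a log2 change of -3.00 with an adjusted p of 0.0124 in the authors' deposited table. In NeuN-negative nuclei the gene had a gained region (6.98, 5.28 and 6.51 against 0.95, 0.68 and 0.90) and a lost one (0, 2.64 and 0.54 against 6.63, 6.08 and 8.14).

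**Figure D5:**
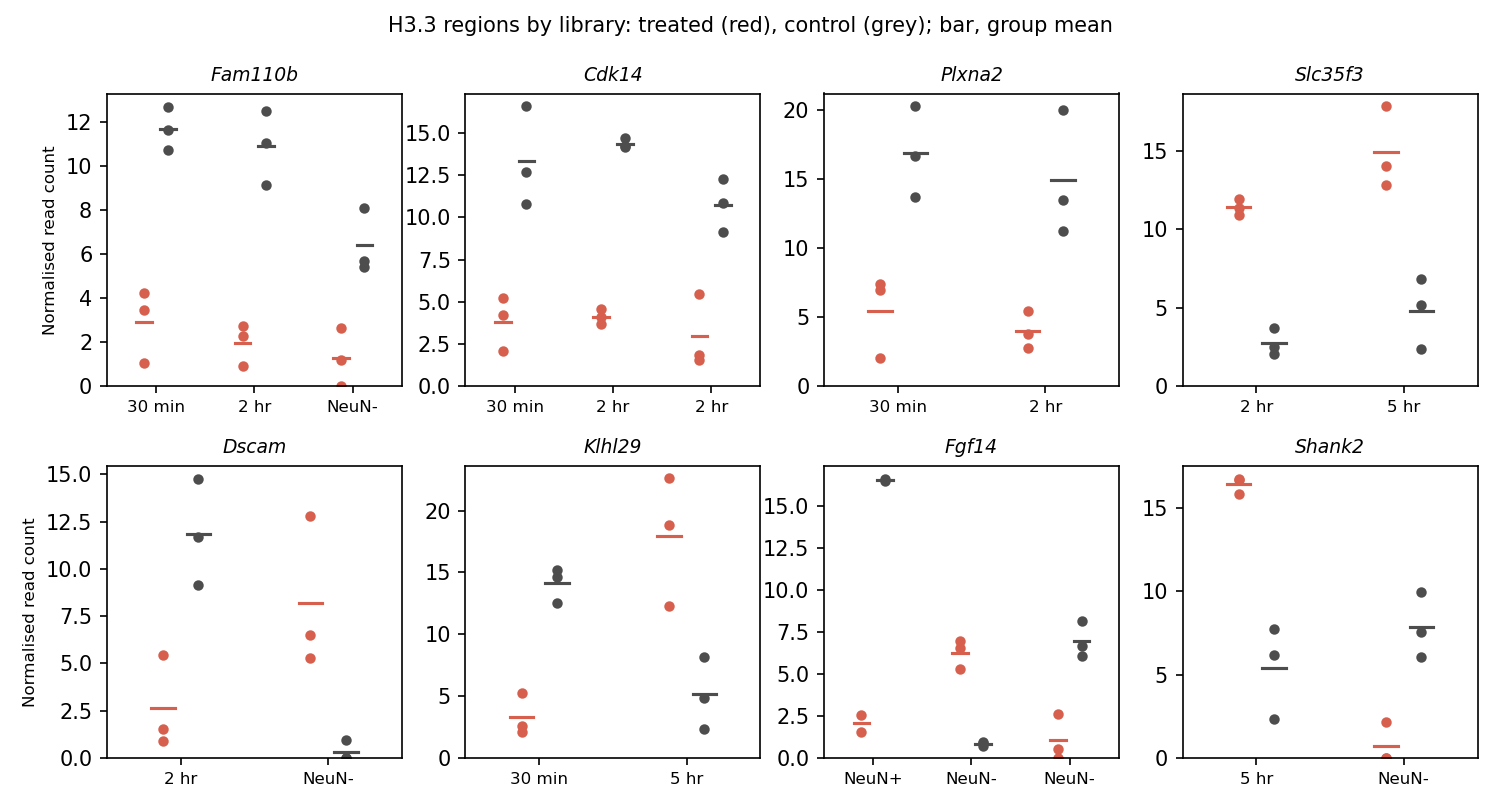
Normalised read count of each library at the H3.3 members of 8 genes, by table: treated libraries (KCl or enriched) in red, control libraries in grey, group means as bars. The groups do not overlap in any pair, as at all 4637 autosomal regions of the H3.3 tables. Dscam, Klhl29, Fgf14 and Shank2 hold regions of both directions.

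The leading members of single tables add further genes. At 30 min the dynein gene Dync1i1 was gained at the centromere end (10.38, 11.56 and 10.29 against 2.54, 3.33 and 1.95) and the protease gene Tmprss2 at the telomere end (10.38, 13.67 and 10.29 against 3.80, 2.50 and 1.95), whereas Xkr4 was lost (0.86, 3.15 and 6.17 against 11.41, 14.99 and 10.74). At 2 hr the member with the smallest adjusted p was a lost intergenic region of distal chromosome 9, chr9:121416581-121416780, with 0.92, 3.03 and 1.36 against 10.18, 14.16 and 13.50, and the adhesion gene Negr1 lost a region (1.84, 1.52 and 1.36 against 9.16, 10.00 and 11.05). At 5 hr Ascc2 was gained (15.74, 11.41 and 10.91 against 3.54, 2.05 and 2.91) and the phosphatase-family gene Ptprn2 was listed as lost (8.85, 4.39 and 6.94 against 20.07, 21.53 and 19.40), with adjusted p of 0.0815 and 0.0692 in the authors' deposited table. Neither reached 0.05.

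In NeuN-positive nuclei the chromatin remodeller gene Arid1b was lost at the centromere end (8.63 and 6.85 against 24.09 and 27.74), and at the telomere end Prdm16, a zinc-finger regulator of neural stem cells, was gained (28.26 and 35.96 against 9.03 and 7.19), as was Ccdc40, a gene for cilia (16.48 and 20.55 against 1.51 and 4.11). In NeuN-negative nuclei a region of Crebbp, a histone acetyltransferase gene, was lost at the centromere end (0, 0 and 1.08 against 5.69, 6.76 and 7.23), and one by Elavl1, an RNA-binding protein gene, was gained (5.82, 10.57 and 8.13 against 0, 0.68 and 1.81). The vesicle-traffic gene Rab5b lost a telomere-end region (0, 2.64 and 0.54 against 6.63, 8.11 and 9.95). Its 2.64 is 1 read of the second enriched library. A value of 0 in that library allows up to 7.93, which is above the Crebbp control values. At each of these regions the treated and control values did not overlap, as at all 4637 autosomal regions of the H3.3 tables.

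Gene groups fixed by symbol had few H3.3 members at the ends, which hold 239 of all 4637 H3.3 regions. Ion channels had 2 of their 43 autosomal H3.3 regions there, both in Kcnq1. Adhesion and guidance genes had 4 of 95 (1 gained, 3 lost) in Dscam, Negr1 and Ptprn2, and solute carriers 3 of 49 (2 gained), all at the telomere end. Zinc-finger genes had 1 at each end of 41, keratins 1 of 2 and neurotransmitter receptors 0 of 19. In CATCH-IT the telomere end had 26 regions at 7 ion channel genes (16 gained, 10 lost), where 56.8% of such regions were gained over all autosomes, 42 at 4 adhesion genes (22 gained, 57.0% over all autosomes) and 16 at 9 solute carriers (9 gained, 57.6%). Neurotransmitter receptors had 11 at the centromere end, 8 of them gained, in the glutamate receptor gene Gria4 and the opioid receptor genes Oprk1 and Oprm1, and 4 at the telomere end, all lost, in Chrna4, Gabrd and Oprl1, beside 48.2% gained over all autosomes. The leading Gria4 region, chr9:4719261-4719640, had 8.02, 3.20 and 16.31 against 0 in all controls, which is 6 reads in each KCl library. The leading Oprl1 region, chr2:181449321-181449720, had 0 in all KCl libraries against 3.79, 16.63 and 14.19, which is 12 reads in each control library.

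The imprinted cluster of distal chromosome 7, where only the copy from one parent is active for many genes, lies within the telomere end. Of 20 genes fixed for it, 11 had 16 CATCH-IT regions, 12 gained and 4 lost (57.2% gained over all autosomal regions). The gained ones included Igf2, a growth factor gene (2.67, 5.86 and 13.59 against 0 in all controls), Cd81 (5.34, 6.39 and 5.44 against 0) and 3 regions at the nucleosome assembly gene Nap1l4, of which the tallest had 16.03, 6.39 and 59.79. The lost ones were by H19, a non-coding RNA gene (0 in KCl against 1.89, 2.77 and 14.19), Tspan32 and, at 2 positions, the potassium channel gene Kcnq1. In 9 of the 16 a library of the higher group stood at 6 or 12 reads. The H3.3 tables had 4 members in the cluster: Ins2 (15.70 and 17.98 against 3.01 and 5.14) and Tspan32 (25.90 and 20.55 against 9.03 and 6.16) were gained in NeuN-positive nuclei, and Kcnq1 had a gained (11.63, 13.21 and 8.13 against 2.84, 0.68 and 1.81) and a lost region (0, 0 and 1.08 against 5.69, 7.43 and 5.43) in NeuN-negative nuclei. The tables do not separate the parental copies.

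Base composition went with the direction of change in some tables and did so along the whole chromosomes. In NeuN-positive nuclei the gained members of both ends had a median GC content of 53% and the lost ones 47.2%, against 53% and 46% elsewhere. At 5 hr the values were 52.5% and 46.5% at the ends and 51% and 44.1% elsewhere, and at 2 hr 49.2% and 44.3%, against 49% and 45%. At 30 min and in NeuN-negative nuclei the order was the opposite (45% and 47.5% at 30 min, 45.2% and 46.5% in NeuN-negative nuclei). CATCH-IT had 44.1% and 43.9%. The part of GC content, which also affects how well fragments amplify, in the direction of these regions was not tested. Tandem copies of the telomere repeat TTAGGG, searched as 2 adjacent copies on either strand, were found in 0 of the 2730 members. Elsewhere they were found in 21 of 48905 CATCH-IT regions, 19 gained and 2 lost, where 57.2% of all regions were gained. With so few elsewhere, the 0 among the members is no sign that the ends lack the repeat.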

How the data were processed

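Per the submitters' processing notes, Bowtie 0.12.7 and bedtools 2.16.2 were used with build mm9; the region caller and the normalisation are not given in the sources used here. Per the file headers, each deposited table gives a mean normalised signal per group, a ratio to input, a log2 fold change and an adjusted p-value for every region, and the values of single libraries packed in 1 cell (other values, in the same normalised reads). The authors' deposited log2 values and p-values were copied, not recomputed. Packed values carry no library names, so a library is known only by its group, and for the 30 min controls 4 labelled libraries stand beside 3 values. Library totals are not in these tables; depth is known only per region, from the value of 1 read.

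Regions were placed by coordinate and counted by direction, with exact binomial intervals for shares and exact Poisson intervals for counts per Mb (95%), which cover counting error only. Placement, direction and intervals were tested on simulated data. Sequence came from the mm9 genome and annotation from GENCODE vM1; 32-base words that occur once in the build measured single-copy sequence. Named regions were the 3 (CATCH-IT: 5) per table, end and direction with the smallest adjusted p, ties by difference of means. One region named by this rule is not reported here. The members and gene lists were chosen with earlier results of these data known. Python 3.11.15, pandas 2.3.3, numpy 2.4.6, SciPy 1.17.1, pysam 0.24.0 and matplotlib 3.10.9 were used.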

Additional observations from a re-analysis of the deposited data

Results flagged for a closer look

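The series also has a table of regions changed in H3.1/2, the replication-coupled forms of H3, in the cultured neurons after 5 hr of KCl, which the comparisons here do not use. Of its 7 autosomal regions, 1 lay at each end, both higher in the KCl libraries. At Mrps35, a mitochondrial ribosome gene, the telomere-end region chr6:147007861-147008060 had 18.71, 23.55 and 18.18 normalised reads against 6.85, 6.42 and 4.53 in the controls. At Ankrd13d the centromere-end region chr19:4272501-4272700 had 22.96, 19.27 and 18.18 against 5.87, 10.70 and 2.26. The groups did not overlap in either, as in every autosomal region listed for H3.1/2, so this separation is a property of the list. In the authors' deposited table the log2 changes were 1.76 and 1.68, with adjusted p of 0.0411 and 0.0808.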

How the results depend on the processing

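Apart from leaving out libraries, 114 of 123 alternative values of the share gained stayed inside the interval of the share, and 84 of 92 alternative densities did. The H3.3 intervals are wide, such as 14.2 to 61.7% at the 30 min centromere end, so few values could leave them. The limit on adjusted p kept every member outside the 5 hr table, and merging changed no H3.3 end. Leaving out each library (68 values, 0 moved) gave 57.4% to 57.7% at the CATCH-IT centromere end and the reported share at the other 11 ends. The groups do not overlap at any listed H3.3 region, nor at 98.3% of centromere-end and 99.4% of telomere-end CATCH-IT members. Leaving out a library could hardly change a direction, so this is no sign of stability. The same holds for taking the direction from medians, which is counted among the 123. At an adjusted p of at most 0.05 the 5 hr table kept 0 regions per Mb at the centromere end and 0.0175 at the telomere end, with 0% of that 1 region gained. Among 5 hr telomere-end regions of at least 4-fold, 0% of 2 were gained; in NeuN-positive nuclei that limit gave 100% of 10 at the centromere end and 80% of 15 at the telomere end. For CATCH-IT, the centromere-end share was 69.1% by the ratio to input (165 regions), 79.0% with both means above 0 and 90.6% without piles of 6 or 12 reads; the telomere-end values were 93.5% with both means above 0 and 89.8% without piles. Elsewhere the last 2 settings gave 89.1% and 90.0%. Centromere-end density was 19 per Mb without chromosome 11, 18.5 without multi-copy regions, 27.0 per Mb of single-copy sequence and 5.77 without piles; at the telomere end the last 2 settings gave 26.8 and 6.19, and without piles the rest had 5.64. Per Mb of single-copy sequence the 30 min centromere end had 0.397 regions against 0.219 elsewhere, outside its interval. Settings on piles, multi-copy and single-copy sequence were chosen after seeing the data. The cause of these shifts was not tested, beyond the fewer regions that each limit keeps. The setting on piles takes out a larger share of the lost than of the gained regions, because piles were more common in lost ones. Depth limits the values: CATCH-IT members had a median of 17 to 21 reads over 3 libraries, and NeuN-negative members 7 per library. No paired analysis was possible because the packed values carry no library names or replicate numbers.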
